A study of Homo sapiens with 2 samples.

Results

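The genes described here encode the enzymes that attach ubiquitin to proteins and take it off again. They were chosen by symbol as the E2 conjugating enzymes (UBE2), the ligases of the HECT, U-box, UBR, RNF and TRIM groups, the cullins with their F-box, Kelch-like and ASB substrate receptors, and the USP and OTUD deubiquitinases, leaving out USP18. The rule found 36 of the 2046 genes in the deposited table. Ubiquitin is activated by an E1 enzyme, handed to an E2 and placed on a substrate by an E3 ligase. HECT ligases carry ubiquitin on their own cysteine, and most RING ligases bring the loaded E2 to the substrate. Cullin ligases are RING ligases assembled from a scaffold and an exchangeable substrate receptor, and deubiquitinases are the proteases that remove or trim the chains. In breast epithelial cells this system sets how long growth factor receptors such as EGFR stay at the membrane, and how fast transcription factors and cell cycle proteins are degraded.

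The series sequenced RNA of MDA-MB-231, a human triple-negative breast cancer line, in 2 samples grown alike. One was the wild type, labelled TAMER+/+, and the other a knockout, labelled TAMER-/- and taken here as the TMEM25 knockout because the series design names that gene. The title concerns activation of STAT3 by monomeric EGFR. Whether the knockout came from 1 clone is not given in the sources used here. With 1 library a genotype, no difference has a replicate check, no test was made, and differences are given by size alone.

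All genes of the table had a knockout value of at least 1 and a ratio of knockout to wild type of at least 2, and all 36 members passed these limits by being in it. That every member was higher in the knockout library is therefore a property of the table, and genes outside these limits were not analysed here. TMEM25 was not in the table, which lists only genes higher in the knockout, so the knockout could not be checked. Which column belongs to which genotype was taken from the header names of the values, reads and ratio, which point one way, while the deposited log2 columns have their names swapped in 2046 genes. In the knockout library the luminal breast markers TFF1 (5920 against 0.94), TFF3 (127.85 against 3.68) and EPCAM (419.58 against 145.74) were higher, 3 of a list of 18, with summed values of 6468 and 150. Markers of the mesenchymal type to which MDA-MB-231 belongs gave 3 of 15 (TGFBI, PLAUR and PLAU, summed values 16.7 and 2.33), keratinocyte markers 1 of 10, fibroblast markers 0 of 10 and leukocyte markers 0 of 12. Over all annotated protein-coding genes, 10.1% were in the table. In RNA from bulk cultures, a change in the share of cells that express a gene and a change in its RNA per cell cannot be told apart. The part of these differences in the results below was not tested. The identity of the line in each library was not tested either, so with 1 library each, the knockout and any difference in line or clone between the cultures cannot be told apart.

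As a set, the ubiquitin genes looked like the rest of the table on the log2((knockout + 1) / (wild type + 1)) scale. That scale is used for every log2 ratio here unless another is named. On it, 29 of 36 members reached 2-fold, higher in the knockout (80.6%), against 80.6% of all 2046 genes. At least 4-fold higher were 7 of 36 (19.4%), against 21.3% of all genes. The median log2 ratio was 1.25 for the members, with an interquartile range of 1.03 to 1.78, and 1.33 for the whole table, with 1.04 to 1.86. On the ratio as deposited, without a pseudocount, the median log2 was lower for the members (1.49) than for the table (1.74). The members were expressed a little above the typical gene of the table, with a median expression value of 16.5 in the knockout and 5.66 in the wild type against 12.1 and 2.91. The deposited expression values are taken here as scaled for gene length and library by the authors. A gene's read-count fold, given with its 95% counting interval, is the ratio of its reads brought to the scale of the deposited expression values, since depth is not known, and that interval covers counting error only. The lower limit of this interval lay above 2 for 27 members (75%, against 76.5% of all genes) and above 4 for 11 (30.6%, against 32.4%). The interval included 2 for the other 9, and the number with an interval wholly below 2 was 0.

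**Figure D1:**
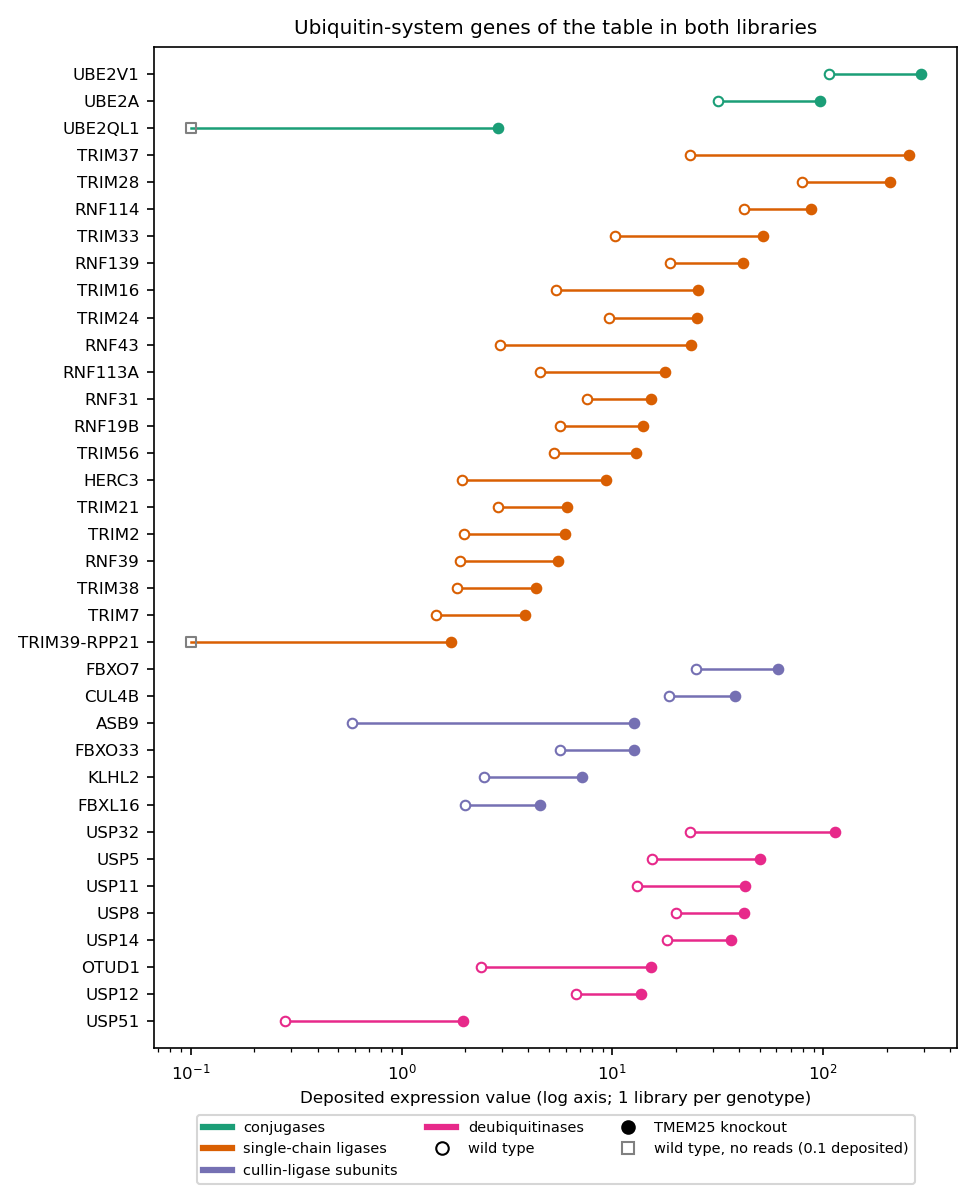
Deposited expression value (x axis, log scale) of each of the 36 ubiquitin-system genes in the wild-type library (open circles) and the TMEM25 knockout library (filled circles), grouped by family. The pairs run from TRIM39-RPP21 at 1.71 in the knockout to UBE2V1 at 289.64, and grey squares mark the 2 genes without wild-type reads, for which the table lists 0.1.

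The classes were not equally present. The TRIM ligases gave 11 of the 78 protein-coding genes that GENCODE 29 annotates under the same symbol pattern (14.1%), while the RNF ligases gave 7 of 86 (8.14%), the USP deubiquitinases 7 of 78 (8.97%) and the E2 enzymes 3 of 37 (8.11%). Among the classes with members, the substrate receptors of cullin ligases had the lowest shares, with 3 of 62 F-box genes (4.84%), 1 of 37 Kelch-like genes (2.70%) and 1 of 18 ASB genes (5.56%). The UBR and U-box ligases had no member, with 0 of 6 and 0 of 2. Over all annotated protein-coding genes the share was 10.1%, and over all classes together 36 of 434 (8.29%). These shares carry no test, because unlisted genes may be silent, alike or lower.

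**Figure D2:**
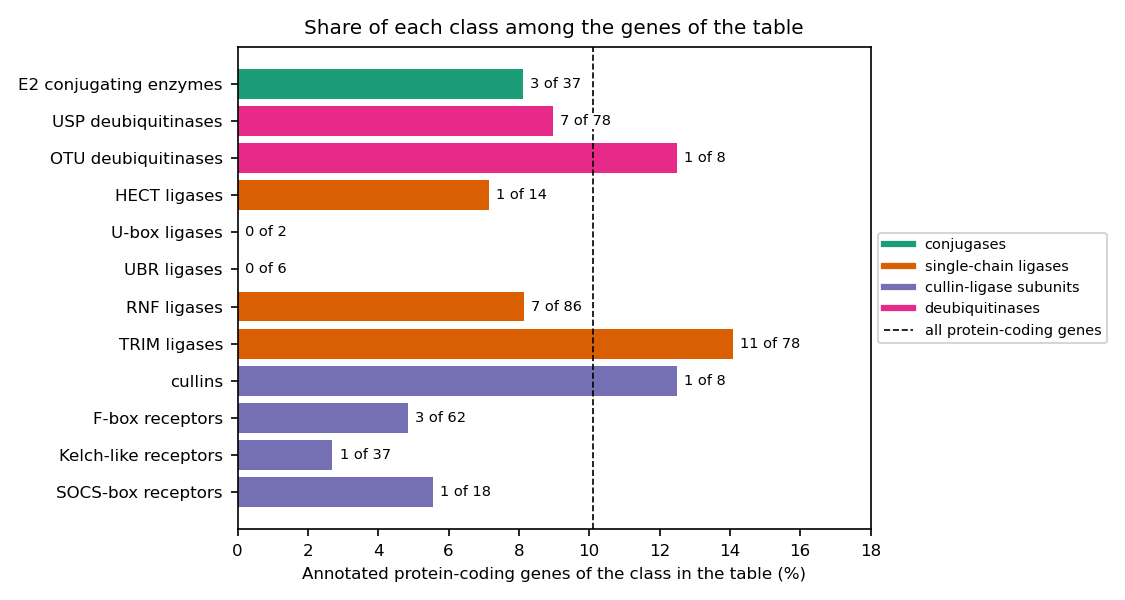
Percentage of the annotated protein-coding genes of each class that were in the table (x axis), with the counts beside each bar. The dashed line marks 10.1%, the share over all protein-coding genes, and the TRIM bar at 14.1% rests on 11 genes.

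Among the E2 enzymes, UBE2V1 was the most abundant of all members. UBE2V1 is an E2 variant without a catalytic cysteine that pairs with UBE2N to build signalling chains. Its expression value was 289.64 in knockout cells and 106.52 in wild-type cells, from 11614.68 and 3681.47 reads, a read-count fold of 2.73 (2.63 to 2.84). It shares exons with the read-through gene TMEM189-UBE2V1, and its counts were not whole, so the division of shared reads bears on its value. UBE2A, the E2 that marks histone H2B and acts in DNA damage tolerance, stood at 96.65 against 31.55, a fold of 3.07 (2.85 to 3.30). UBE2QL1, a little-studied E2-like gene on chromosome 5, had 112 knockout reads and 0 wild-type reads. It was at least 25.8-fold higher by the lower 95% counting limit (32.3 with 3 reads standing for the 0), at a low expression value of 2.88. The E1 enzymes gave 0 of 9.

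The RNF ligases spanned the limit of the table to an 8-fold difference. RNF43, a membrane ligase that removes Frizzled receptors and so dampens Wnt signalling, was the highest of the 7 by ratio. It stood at 23.67 in the knockout and 2.92 in the wild type, a log2 ratio of 2.65, and 2224.92 against 241.02 reads gave a fold of 7.99 (6.99 to 9.17). Its exons overlap those of TSPOAP1-AS1 on the opposite strand and of SUPT4H1 and AC004687.2 on its own. RNF113A, a spliceosome-associated RING protein, followed at 17.80 against 4.53, with a fold of 3.93 (3.13 to 4.97). RNF39 (5.55 against 1.90), RNF19B (13.91 against 5.67), a ligase of the RBR type, and RNF139 (41.69 against 18.75), which acts at the endoplasmic reticulum, had folds of 2.89, 2.40 and 2.22. RNF114 was the most abundant RNF gene at 87.12 against 42.20, with a fold of 2.07 (1.95 to 2.19). RNF31, the catalytic subunit of the complex that builds linear ubiquitin chains in NF-kB signalling, had the smallest read-count fold of all members. It was at 15.24 against 7.55, a fold of 1.98 (1.76 to 2.22), and an interval that includes 2 does not separate it from genes just outside the table.

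The TRIM ligases held the largest absolute difference of the set. TRIM37, a ligase of peroxisomes and centrioles and the gene mutated in mulibrey nanism, had a value of 256.70 in knockout cells and 23.31 in wild-type cells. Its 20512.10 and 1630.69 reads gave a fold of 10.9 (10.3 to 11.5), and its log2 ratio of 3.41 was the highest of all members. In the wild type TRIM37 lay below TRIM28 (79.54), and in the knockout it lay above TRIM28 (206.60). TRIM28, the corepressor recruited by KRAB zinc finger proteins, had a fold of 2.61 (2.51 to 2.71). TRIM24 and TRIM33 belong with TRIM28 to the TIF1 group of chromatin-associated TRIM proteins, and these 3 differed in size. TRIM33, which also acts on SMAD4 in TGF-beta signalling, was at 51.86 against 10.26, a fold of 5.46 (5.13 to 5.81), while TRIM24, a nuclear receptor cofactor, was at 25.10 against 9.63, a fold of 2.60 (2.37 to 2.85). TRIM7, described below, and TRIM33 were the members whose reads per unit of expression departed most from the usual ratio. For TRIM33 the reads per unit of expression differed between the libraries by 1.08 times the usual ratio, and its deposited ratio was 5.05. TRIM16, a TRIM protein known as estrogen-responsive and involved in the clearance of damaged lysosomes, stood at 25.58 against 5.43, a fold of 4.65 (4.03 to 5.39). It has a near copy, TRIM16L, and its counts were not whole, so the split of shared reads bears on its value. The exons of TRIM37 overlap those of AC099850.1 and PPM1E on the opposite strand, and no source used here says whether the counting used strand.

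The other TRIM genes had lower values. TRIM2 (5.97 against 1.98), which acts in neurons, and TRIM56 (12.89 against 5.29), an antiviral ligase, differed by folds of 3.11 (2.66 to 3.63) and 2.46 (2.19 to 2.77). TRIM21, the cytosolic antibody receptor, TRIM38, a regulator of innate immune signalling, and TRIM7 were at 6.07 against 2.86, 4.32 against 1.83 and 3.86 against 1.46. For TRIM7 the reads per unit of expression stood at 0.859 times the usual ratio, so that its deposited ratio was 2.64 and its read-count fold 2.27. The counting intervals of TRIM21, TRIM38 and TRIM7 all included 2, from 1.65 to 2.75, 1.85 to 2.76 and 1.65 to 3.15. TRIM39-RPP21, a read-through model of 2 neighbouring genes that shares its exons with both, had 49.14 reads against 0. By the lower counting limit it was at least 11.1-fold higher (14.2 with 3 reads standing for the 0). Its knockout count was not whole, so the division of shared reads bears on its value and on this limit. Summed over the 11 TRIM genes the expression values were 601 and 142, a ratio of 4.24, and without TRIM37 the sums were 344 and 118. The corresponding sums for the 7 RNF genes were 205 and 83.5, a ratio of 2.45. Over all genes of the table the ratio of the sums was 3.42. The HECT group was present with HERC3 alone, a small HERC ligase at 9.30 against 1.94, with a fold of 4.89 (4.11 to 5.88).

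**Figure D3:**
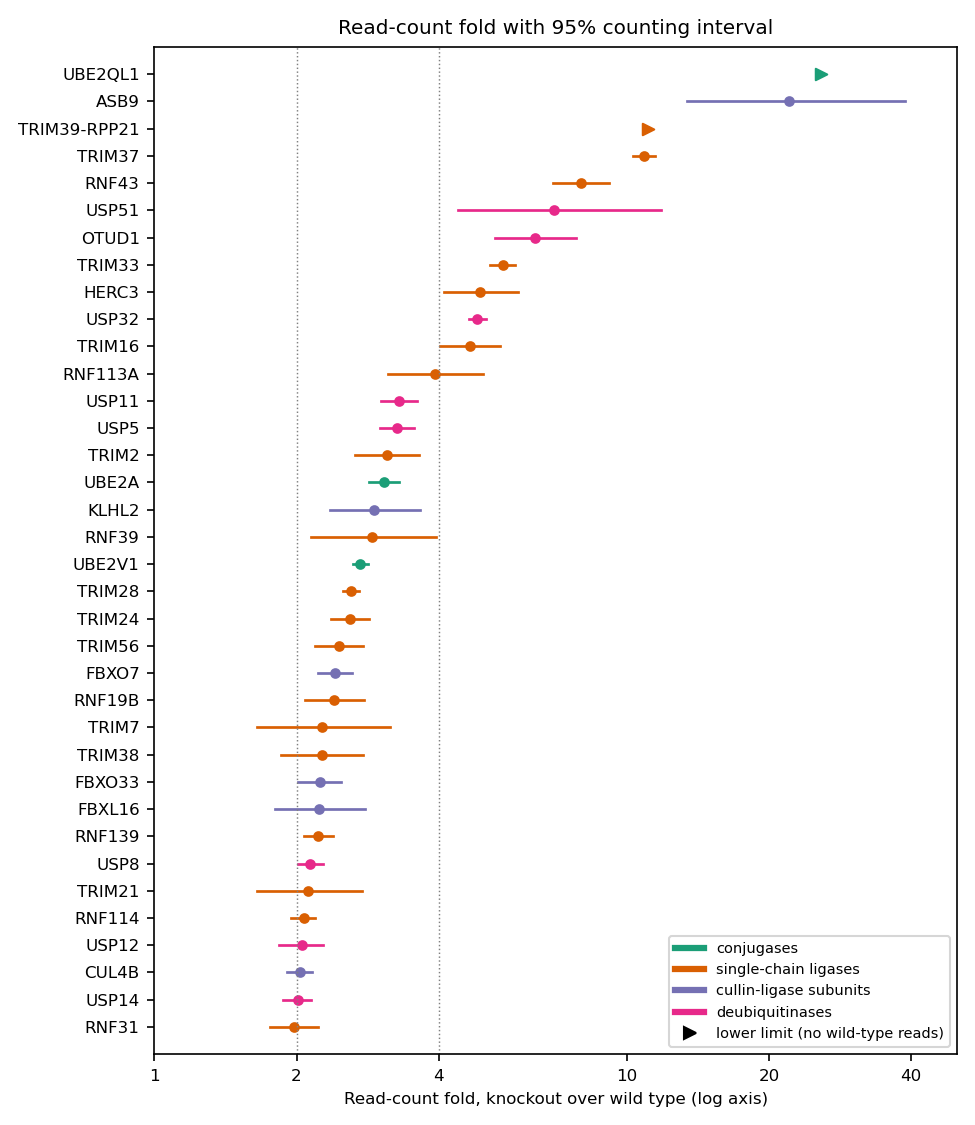
Read-count fold of knockout over wild type for each member (x axis, log scale, dotted lines at 2 and 4), with bars for the 95% counting interval and triangles at the lower limit for the 2 genes without wild-type reads. TRIM37 at 10.9 has a narrow bar because it rests on 1630.69 wild-type reads, and ASB9 at 22.0 a wide one because it rests on 16.

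Of the cullin-ligase subunits, ASB9 stood apart by size. ASB9 is a substrate receptor of CUL5 ligases and is known to bind creatine kinase B. It was listed at 12.63 with the knockout and 0.58 with the wild type, from 407 and 16 reads, a fold of 22.0 (13.4 to 38.9) and a log2 ratio of 3.11. The remaining subunits had folds from 2.03 to 2.92. CUL4B, the X-linked scaffold that pairs with DDB1, was at 38.35 against 18.65, a fold of 2.03 (1.91 to 2.16). The F-box receptors FBXO7, linked to mitophagy and familial parkinsonism, FBXO33 and FBXL16 were at 61.13 against 24.89, 12.63 against 5.65 and 4.55 against 2.0, with folds of 2.41, 2.24 and 2.23. KLHL2, the CUL3 receptor of WNK kinases, was at 7.14 against 2.47, a fold of 2.92 (2.36 to 3.65). The median log2 ratio of the 6 subunits was 1.13, the lowest of the 4 families, against 1.23 for the 19 single-chain ligases (HECT, RNF and TRIM), 1.42 for the 8 deubiquitinases and 1.58 for the 3 E2 enzymes. Over the whole table it was 1.33. On the ratio as deposited, without a pseudocount, the medians were 1.24, 1.4, 1.7 and 1.62 in that order, against 1.74 for the table. The order of deubiquitinases and E2 enzymes therefore depends on the scale. With so few genes a family and 1 library a genotype, these medians were not tested against each other.

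The deubiquitinases paired abundant enzymes with a few low or sharply different genes. USP32, a membrane-anchored protease, was the most abundant at 113.31 against 23.48, and its 14411.09 and 2585.04 reads gave a fold of 4.83 (4.63 to 5.03). USP6 derives from USP32 and shares much of its sequence, and the USP32 counts were not whole. OTUD1, an OTU-domain protease, was at 15.17 against 2.38, a fold of 6.39 (5.27 to 7.80). USP5, which recycles free ubiquitin chains, and USP11, a nuclear enzyme of DNA repair and TGF-beta signalling, lay together. USP5 was at 50.39 against 15.43, a fold of 3.26 (3.01 to 3.54), and USP11 at 42.76 against 13.14, a fold of 3.29 (3.02 to 3.59). USP8, which acts on EGFR at endosomes and is the member closest to the question of the study, was at 41.92 against 20.04. Its fold was 2.14 (2.01 to 2.28), near the lower limit of the table. USP14, the deubiquitinase bound to the proteasome, was at 36.44 against 18.21, a fold of 2.01 (1.87 to 2.15). USP12 was at 13.69 against 6.73, a fold of 2.05 (1.84 to 2.28). USP51, a histone deubiquitinase on chromosome X, was low at 1.96 against 0.28, and 162 against 20 reads gave a fold of 7.01 (4.39 to 11.8). A deposited ratio under 2.1 was listed for 6 members, namely USP14, USP12, USP8, RNF31, RNF114 and CUL4B.

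The position of the genes was not part of the rule. Of the 7 members at least 4-fold higher, 4 lie on chromosome 17 (TRIM16, RNF43, TRIM37 and USP32), a chromosome that holds 5.79% of all genes past the same size. RNF43 (chr17:58352500-58417595), TRIM37 (chr17:58982638-59106921) and USP32 (chr17:60179094-60422470, all minus strand, GRCh38) are neighbours. The RNF43 start lies 689 kb from the TRIM37 start and the USP32 start 1316 kb from it on the other side. In the stretch from RNF43 to USP32, 13 of 29 protein-coding genes (44.8%) were in the table. RNF43, TRIM37 and USP32 are among the 13 by the choice of the stretch, so this share cannot be set beside the neighbour shares below. Of the 13, the 10 outside the symbol rule had a median log2 ratio of 2.31 and a range of 0.86 to 3.84, and 6 of the 10 were at least 4-fold higher. For the whole table the median was 1.33, and 21.3% of its genes were at least 4-fold higher. The 10 included RNFT1, a RING finger gene that the symbol rule did not take, at 34.67 against 12.57, as well as RPS6KB1 at 270.00 against 27.83, RAD51C at 121.64 against 17.42 and CA4 at 18.45 against 0.36. The 3 differed in their neighbours. Around RNF43, 4 of the 31 coding genes starting within 1 Mb were in the table (12.9%), with a median log2 ratio of 2.17. Around TRIM37 it was 10 of 33 (30.3%), with a median of 2.31. Around USP32 it was 11 of 15 (73.3%), with a median of 3.09. TRIM33 (chr1:114392777-114511160, minus strand) had a surrounding like that of USP32, where 10 of 19 neighbours were in the table (52.6%) with a median log2 ratio of 2.46, NRAS among them. A high share also stood beside smaller ratios. Around TRIM56, 27 of 57 neighbours were in the table (47.4%), with a median log2 ratio of 1.34. Over all 36 members the median share of neighbours in the table was 13.6%, with quartiles of 5.63% and 36.2%, against 13.3% (5.88% and 25%) over 2005 genes of the table. Without RNF43, TRIM37 and USP32, 4 of the 7 members at least 4-fold higher remain. That number follows from the removal itself, which was chosen after seeing the data. DNA copy number was not measured here, and its part in these values was not tested.

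**Figure D4:**
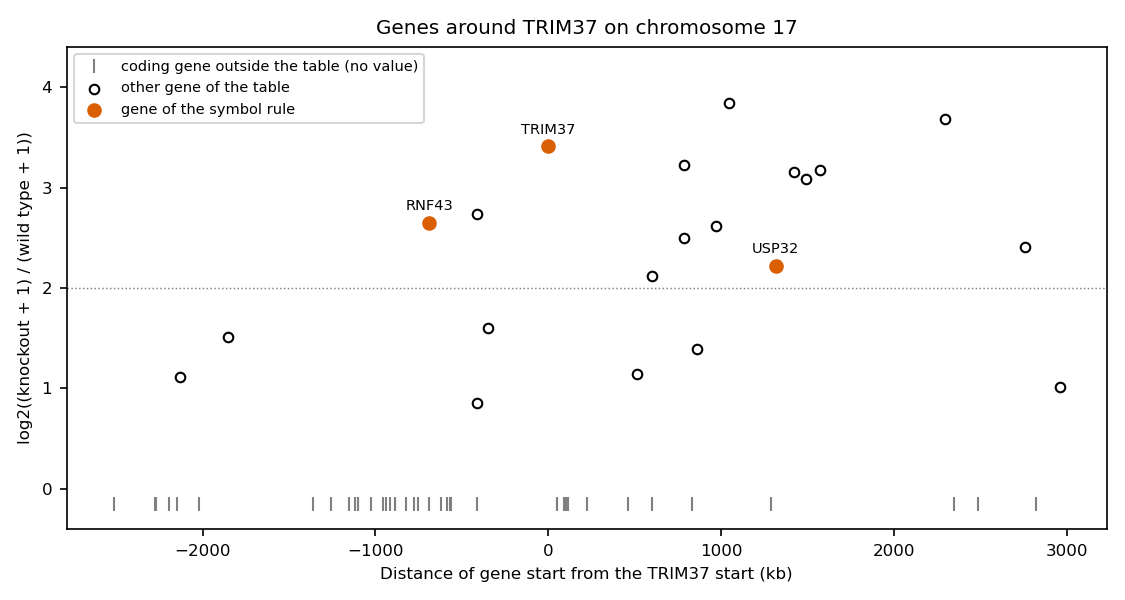
Log2 ratio (y axis) of the genes of the table against the distance of their start from the TRIM37 start in kb (x axis) on chromosome 17, with ticks for coding genes outside the table. Of the 61 coding genes within 3 Mb, 21 were in the table (34.4%), with RNF43, TRIM37 and USP32 among them by the choice of the stretch. At or above the dotted line at 2 lie 11 of the 18 outside the symbol rule (open circles), against 21.3% of all genes of the table.

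Chromosome X held 6 members (UBE2A, CUL4B, RNF113A, ASB9, USP11 and USP51), 16.7% of the 36, while it holds 7.01% of the table's genes with a position. Their log2 ratios ran from 1.0 for CUL4B to 3.11 for ASB9. UBE2A and RNF113A lie near each other (chrX:119574467-119591083 and chrX:119870475-119871827, GRCh38), and 9 of 25 and 10 of 26 of the coding genes starting within 1 Mb of them were in the table. Other members stood without such company. TRIM28, TRIM21, RNF19B, FBXO33 and UBE2QL1 had 0 neighbours in the table among 50, 50, 36, 5 and 5 coding genes.

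Promoter sequence was compared because the genes were all higher in 1 library. RefSeq promoter entries (GRCh38.p14) matched 29 of the 36 members, and the 250 bases before the start were searched on both strands. The motif TTCNNNGAA, the core bound by STAT factors, was found in 1 of 29 members (3.45%), against 5.71% of 1610 promoters of table genes and 6.78% of 27305 promoters in all. That member was TRIM16. The GC-box GGGCGGGG was in 14 of 29 (48.3%), against 39.8% of the table's promoters and 22% of all, and the median GC content was 66.0% for members, 66.0% for the table and 58.0% for all promoters. The set of all promoters was not limited to protein-coding genes, so its mix of gene types may differ from that of the table. CCAAT was in 10 of 29 (34.5%, against 30.1% and 33%), TGACNNNGC, the core of the antioxidant response element, in 5 of 29 (17.2%, against 10.8% and 11%), and TATAAA in 1 of 29 (3.45%, against 7.64% and 11.1%), that of RNF39. A match of letters is a description and not a binding site. The sequences below are those of the 3 members with the highest log2 ratios, from base 250 to base 71 before the start, and the 29 bases around the STAT-type motif of TRIM16, all on the minus strand. Capitals mark CCAAT in ASB9 and RNF43 (in RNF43 read on the other strand), the GC-box in TRIM37 (read on the other strand) and TTCNNNGAA in TRIM16. The windows are chrX:15270538-15270717 for ASB9, chr17:58417605-58417784 for RNF43, chr17:59106951-59107130 for TRIM37, within an exon of the opposite-strand gene AC099850.1, and chr17:15683117-15683145 for TRIM16, within an annotated TRIM16 exon.
ASB9: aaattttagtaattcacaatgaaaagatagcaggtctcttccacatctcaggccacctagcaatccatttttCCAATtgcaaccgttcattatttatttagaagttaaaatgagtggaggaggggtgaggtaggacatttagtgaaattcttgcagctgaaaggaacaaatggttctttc
RNF43: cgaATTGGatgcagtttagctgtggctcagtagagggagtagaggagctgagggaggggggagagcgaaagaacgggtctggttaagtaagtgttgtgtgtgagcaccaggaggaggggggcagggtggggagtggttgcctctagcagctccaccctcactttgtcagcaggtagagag
TRIM37: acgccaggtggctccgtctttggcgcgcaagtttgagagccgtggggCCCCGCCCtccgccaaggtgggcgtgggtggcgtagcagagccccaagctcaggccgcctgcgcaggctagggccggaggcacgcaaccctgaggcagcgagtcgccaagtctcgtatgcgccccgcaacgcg
TRIM16: tgctggcaatTTCCAGGAAgatacgtgga
The GC content of the windows was 37.2% for ASB9, 57.2% for RNF43 and 71.1% for TRIM37, so the members with the highest ratios differ in base composition before their starts.

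Other genes of the ubiquitin and proteasome pathway were read from lists of genes outside the symbol rule. Beside each share of a list in the table stands 10.1% of all annotated protein-coding genes. These shares carry no test either, because unlisted genes may be silent, alike or lower, and lists may differ in how many genes are silent. Proteasome subunits and assembly factors gave 17 of 49 (34.7%), and all 17 were at least 2-fold higher on the log2 scale, which 80.6% of all genes of the table also reached, with a median log2 ratio of 1.59. PSMD6, a subunit of the regulatory particle, was at 741.02 against 43.20, a fold of 17.1 (16.0 to 18.3), and PSMA5, PSMA7 and PSMB5, subunits of the core particle, had folds of 4.46, 3.84 and 3.57. The genes of ubiquitin and its relatives gave 6 of 16, with the polyubiquitin precursor UBB at 747.04 against 333.32, NEDD8 at 272.24 against 110.10 and ISG15 at 20.74 against 2.83. Other RING and RBR ligases gave 12 of 108 (11.1%, 8 of them at least 2-fold higher), led on the log2 scale by MID2 (14.82 against 2.12), TRAF5 (16.42 against 2.53) and MYLIP (31.16 against 6.69), with folds of 6.77, 6.86 and 5.06. NEURL1 (1.07 against 0.04) had a higher fold of 23.4 (7.72 to 116), on 3 wild-type reads. Other cullin-ligase subunits gave 13 of 78 (16.7%, 10 at least 2-fold higher and 0 at least 4-fold higher on the log2 scale), led on that scale by SPOPL at 22.17 against 6.14, a fold of 3.60 (3.28 to 3.95). SPSB2 of the same list, at 5.21 against 1.10, had a higher read-count fold of 4.69 (3.02 to 7.58). Beside these 2-fold counts stands the same 80.6% of all genes, and beside the 4-fold count 21.3%. At least 4-fold higher were 3 of the 12 other RING and RBR ligases and 2 of the 17 proteasome genes. Other HECT ligases gave 2 of 13, HECW2 (1.61 against 0.21) and SMURF1 (13.75 against 6.27), and other deubiquitinases 4 of 41, with ALG13, which carries an OTU domain, at 44.08 against 11.98 and the proteasomal PSMD14 at 88.07 against 30.68. The p97 complex and ubiquitin receptors gave 3 of 33, with SQSTM1 at 452.73 against 128.29 and UFD1 at 89.03 against 26.29.

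Lists by function cut across the classes and held few members each. Enzymes linked to EGFR, STAT3 and cytokine receptors gave 3 of 23 (HERC3, TRIM28 and USP8), with a median log2 ratio of 1.37. Enzymes of histone ubiquitination and DNA damage gave 5 of 31 (USP11, UBE2A, TRIM28, USP51 and CUL4B), also with a median of 1.37. TGF-beta and SMAD enzymes gave 3 of 17 (TRIM33, USP11 and SMURF1), with a median of 1.63, and interferon-linked enzymes 3 of 17 (TRIM56, TRIM38 and TRIM21), with a median of 0.91. Endoplasmic reticulum associated degradation gave 1 of 21, RNF139. All these medians stand beside 1.33 for the whole table, and lists of 3 to 5 genes were given values only. The shares in the table stand beside 10.1% of all annotated protein-coding genes, with the same limit on unlisted genes.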

How the data were processed

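RNA of 1 wild-type and 1 knockout sample was compared. CASAVA 1.4, HISAT2 2.0.4 and build GRCh38.p12 are listed in the submitters' processing notes. The counter, annotation and use of strand are not stated in the sources used here. Per the file headers, the authors deposited per gene an expression value of each library, used as a signal scaled for length and library, an expected count, and the ratio of knockout to wild type, which lists 0.1 for a wild type without reads. The log2 columns the authors deposited have crossed headers and gave no values here. Counts carried decimals as deposited (any value not exactly whole) for 18 of 36 members, and the number of unmatched columns was 0. Log2 ratios used a pseudocount of 1, which understates low genes. The read-count fold was corrected by 1.155, the median over 1133 genes (100 wild-type reads or more) of how many more reads a unit of expression holds in the knockout library, and 3 reads stood for 0. Its interval is the exact conditional binomial one at 95% on rounded counts. It covers counting error only, as reads need not be independent molecules. A check on simulated data drew independent counts as the interval assumes, so it cannot speak for fractional counts or genes without wild-type reads. The reads of the table's genes (4138956 in the knockout, 1046999 in the wild type) are part of each library, so neither depth nor a library scaling is known. Gene positions are from GENCODE 29, joined by Entrez number for 36 of 36 members, and exons of 15 members overlap another gene's, 12 of them on the opposite strand. Any member could be named, with full values for members at least 4-fold higher, those with under 10 wild-type reads and the extremes of each class. Up to 4 genes of other lists were named by highest ratio, while UBB and the neighbouring genes were named after their values were seen. Members and lists were chosen with earlier results of these data known. Python 3.11.15, pandas 2.3.3 and SciPy 1.17.1 were used.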

Additional observations from a re-analysis of the deposited data

How the results depend on the processing

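The alternative without RNF43, TRIM37 and USP32 was chosen after seeing the data. The 29 members at least 2-fold higher became 16 under the pseudocount of 5, and the share of all genes of the table fell from 80.6% to 41.3%. The 7 members at least 4-fold higher became 11 with a pseudocount of 0.1, with read counts, with the ratio as deposited and with counting intervals wholly above 4, or 30.6%, against 39.4%, 40.9%, 41.2% and 32.4% of all genes. They became 2 with a pseudocount of 5 (7.48% of all genes) and 4 without RNF43, TRIM37 and USP32. Under the pseudocount of 0.1, read counts and the deposited ratio, 1 conjugase in place of 0 was at least 4-fold higher. With a pseudocount of 5 the count fell to 0 from 1 for cullin-ligase subunits, to 1 from 2 for deubiquitinases and to 1 from 4 for single-chain ligases. These shifts follow from the rules, since a larger pseudocount lowers every ratio and a smaller one raises it. The median log2 ratio of 1.25 was 1.47 and 0.94 with pseudocounts of 0.1 and 5, 1.4 at a mean expression of at least 5, 1.49 from read counts, 1.49 from the deposited ratio and 1.23 without the 3 neighbours. Over all genes of the table it was 1.33, 1.68, 0.90, 1.41, 1.71 and 1.74 for the same settings as far as the deposited ratio. The median of the members lay below these except with the pseudocount of 5. No paired analysis was possible because each genotype has 1 library and the result comes from no test. At the limits of depth, 8 members had under 100 wild-type reads, and their folds carry the widest intervals.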
